A study of Rattus norvegicus with 10 samples.

Results

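Haemoglobin and 3 other genes of the red cell lineage were examined as a measure of blood in mammary tumours of the rat. The list held Hba-a1, Hba-a2, Hbb, Alas2, Ahsp and Slc4a1, and its members were all probe sets of the array annotated to 1 of them, 8 of the 31042 that are not controls. No filter on signal was applied, and a gene with several was read by the one brightest on average over the 10 arrays. Hba-a1 and Hba-a2 had no probe set of their own: 3 probe sets are annotated to both, so the 6 genes were read by 5 distinct probe sets. A further 2 probe sets are shared between the beta globin copies Hbbl1 and Hbb-bs and are described beside them. The probe set of Hbb is annotated to Hbb alone, but the _x_at suffix of its name marks probes that also match other transcripts, so it may read the other beta copies too.

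The tumours 31D3, 32D1, 37I1, 50I1 and 52I4 were each measured once as a biopsy and once as a total tumour, on Affymetrix Rat Genome 230 arrays, and all were of Bloom-Richardson grade II. All tumours arose in female Sprague-Dawley rats after 1 oral dose of 100 mg/kg of the carcinogen DMBA, and no group without DMBA or without a tumour was analysed here. Biopsies were Trucut needle cores of 0.7 cm by 2.5 mm, taken at 12 weeks of age from tumours of 2 cm3, and total tumours were collected at sacrifice at 19 weeks. No treatment followed in either group, the labels do not say whether blood was rinsed from the tissue, and whether each tumour had a host of its own is not stated either, so p-values cover only the spread among these 5 tumours. The sample labels call the late sample a total tumour, while the series text calls it a needle sample like the first, so how far the way of sampling differed between the groups is not settled. Age, any difference in sampling and the run of codes in the sample titles went with the group and cannot be told apart from it. What these codes stand for is not stated. The epithelial markers fitted the label of a mammary tumour: the mean log2 signal of Epcam, Cdh1, Krt8, Krt18, Krt19, Krt5 and Krt14 lay between 12.16 and 12.62 on every array. Precision is limited by the number of arrays, and signals are on a log2 scale, where a difference of 1 is a doubling.

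Red cells are filled with haemoglobin, a tetramer of alpha and beta chains that each carry a haem group. Mature red cells of mammals have no nucleus, but young red cells, the reticulocytes, still hold globin and other erythroid transcripts for a while, and these enter any RNA sample that contains blood. Alas2 makes the first step of haem synthesis in erythroid cells, Ahsp is a chaperone of free alpha chains, and Slc4a1 is the anion exchanger of the red cell membrane known as band 3. In bulk samples, fewer cells of a type and less RNA per cell cannot be told apart.

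The globin copies lie in clusters and resemble each other, which bears on what a probe set can tell apart. The windows of 250 bases before the annotated starts of Hba-a1 and Hba-a2 are shown because these 2 genes share their probe sets, and that of Hbb because the alpha and beta signals moved together on these arrays. The sequences are from RefSeq, build GRCr8, and run 5′ to 3′ on the strand of the gene, the minus strand in each case. Capitals mark matches, on either strand, to the GATA motif (AGATAA or TGATAA), the KLF motif (CCNCNCCC), CCAAT and TATAAA.
Hba-a1, chr10:15842581-15842830: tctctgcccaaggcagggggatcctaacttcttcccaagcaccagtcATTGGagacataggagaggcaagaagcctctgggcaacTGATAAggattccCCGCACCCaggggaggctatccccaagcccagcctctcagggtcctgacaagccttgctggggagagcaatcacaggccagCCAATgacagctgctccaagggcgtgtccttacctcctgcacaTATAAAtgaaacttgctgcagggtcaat
Hba-a2, chr10:15829139-15829388: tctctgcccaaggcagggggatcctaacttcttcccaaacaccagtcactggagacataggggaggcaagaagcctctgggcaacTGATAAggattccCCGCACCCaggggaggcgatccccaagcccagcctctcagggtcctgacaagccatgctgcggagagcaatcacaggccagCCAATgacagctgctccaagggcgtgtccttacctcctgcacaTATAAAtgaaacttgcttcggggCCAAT
Hbb, chr1:167663722-167663971: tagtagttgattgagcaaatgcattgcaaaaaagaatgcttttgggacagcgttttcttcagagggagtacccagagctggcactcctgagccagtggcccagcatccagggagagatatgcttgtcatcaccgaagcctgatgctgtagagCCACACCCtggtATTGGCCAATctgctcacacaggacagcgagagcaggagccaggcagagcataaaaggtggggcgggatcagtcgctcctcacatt
Compared position by position, the windows of Hba-a1 and Hba-a2 were the same at 241 of 250 bases. Both held 1 GATA match, 1 KLF match and TATAAA, the last beginning 28 bases before the start. The window of Hbb held CCACACCC, a KLF match, and 2 CCAAT matches on opposite strands that lie side by side without sharing a base. Of 33469 windows of the same length, 16.9% held a GATA match, 42.8% a KLF match, 34.0% CCAAT and 12.9% TATAAA. A match describes these letters and is not a site. A window was found for 4 of the 6 genes, and that of Alas2, which held 1 AGATAA, lies inside the annotated gene and is not printed.

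The haemoglobin genes and Alas2 varied widely between tumours: the measured signals of the lowest and highest of 10 arrays lay 3.92-fold apart for the shared alpha globin probe set, 5.72-fold for Hbb and 8.73-fold for Alas2. The first value touches the top of the array's scale and the last its background, as given below, so neither is an exact ratio of transcripts. The mean over total tumours exceeded that over biopsies in all 5 distinct probe sets, and in 54.6% of all 31042 probe sets. The median log2 difference of the 5 was 0.50, where that of all probe sets was 0.02. None of the 5 passed an adjusted p under 0.05 in limma, with adjusted p values between 0.654 and 0.790. The share of all probe sets that passed was 0% as well. At an unadjusted p under 0.05, 2 of the 5 were higher, Ahsp and Slc4a1, against 2.24% of all probe sets, but both read close to background in most arrays, as given below. The 5 probe sets moved together across arrays and are not independent of each other. In no member did the groups separate: each of the 8 probe sets overlapped between biopsies and total tumours, and 1.1% of all probe sets did not overlap.

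The alpha globin genes were read brightest by a probe set shared between Hba-a1 and Hba-a2 (1370239_at). Its log2 signal in the biopsies was 11.98 in 31D3, 12.80 in 32D1, 13.46 in 37I1, 13.37 in 50I1 and 12.48 in 52I4. In the total tumours it was 13.24 in 31D3, 13.95 in 32D1, 13.55 in 37I1, 13.73 in 50I1 and 12.09 in 52I4. The groups overlapped, since the total tumour of 52I4 lay below all biopsies but that of 31D3. The means were 12.82 ± 0.62 (SD, n = 5) and 13.31 ± 0.73 (SD, n = 5), a log2 difference of 0.49 (SE 0.253, higher in 4 of 5 pairs). The unadjusted p was 0.0929 in limma and the adjusted p was 0.756, and an exact sign-flip permutation over pairs gave a two-sided p = 0.25, where the smallest it allows is 0.0625. The highest signal of any probe set on an array lay between 14.07 and 14.26, so the alpha globins were close to the top of the scale in the total tumour of 32D1. The other 2 shared alpha probe sets gave differences of 0.51 and 0.56.

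Hbb, the adult beta chain (1367553_x_at), differed in the same direction as the alpha chains in 4 of 5 tumours, and in 37I1 the alpha chains were higher by 0.10 and Hbb differed by -0.12. Its log2 signal in the biopsies was 10.74 in 31D3, 11.80 in 32D1, 12.73 in 37I1, 12.58 in 50I1 and 11.56 in 52I4. The total tumours gave 12.24 in 31D3, 13.26 in 32D1, 12.61 in 37I1, 12.91 in 50I1 and 10.90 in 52I4. The biopsy of 31D3 and the total tumour of 52I4 were again the 2 lowest arrays, and the total tumour of 32D1 was the highest. The means were 11.88 ± 0.81 (SD, n = 5) and 12.38 ± 0.91 (SD, n = 5), a difference of 0.50 (SE 0.339, higher in 3 of 5 pairs, adjusted p = 0.790 in limma). The probe sets shared by Hbbl1 and Hbb-bs gave larger differences, 0.71 (SE 0.406) and 0.73 (SE 0.392), each higher in 4 of 5 pairs.

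**Figure D1:**
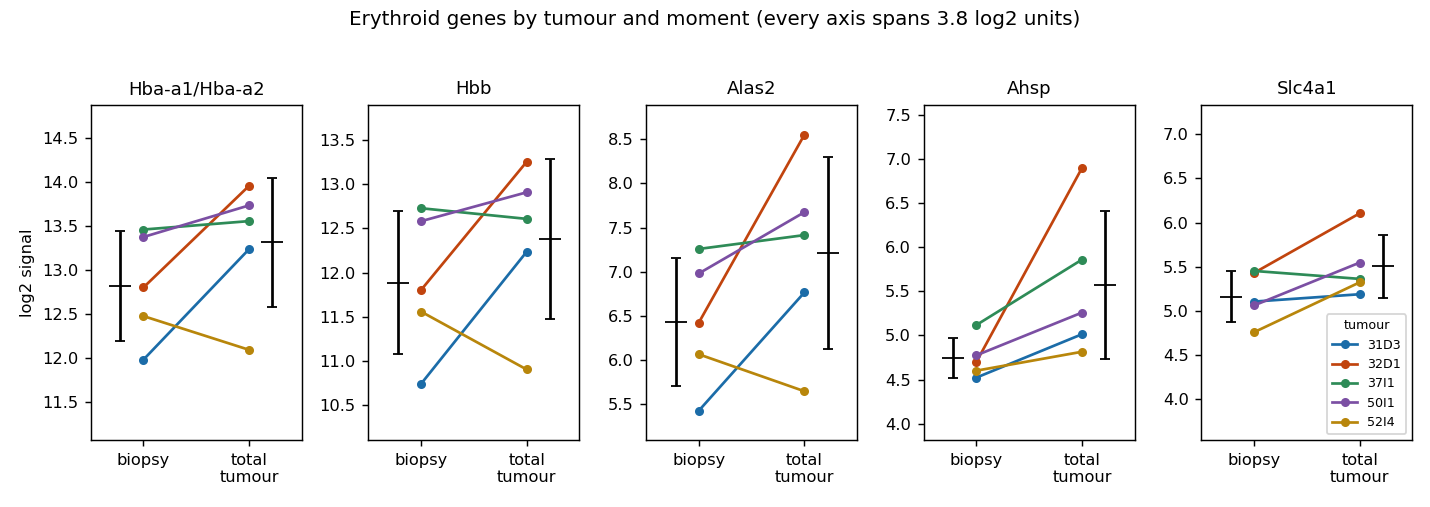
Log2 signal of the 5 distinct erythroid probe sets in the biopsy and the total tumour of each of 5 tumours, joined by lines. Black bars are the mean and SD of each group of 5, and every vertical axis spans the same number of log2 units. In the first 3 panels 31D3 and 32D1 are more than 1 log2 unit higher in the total tumour, and 52I4 is lower.

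Alas2, the erythroid haem synthesis enzyme (1367985_at), had a log2 signal in the biopsies of 5.43 in 31D3, 6.42 in 32D1, 7.26 in 37I1, 6.98 in 50I1 and 6.06 in 52I4. The values of the total tumours were 6.76 in 31D3, 8.55 in 32D1, 7.41 in 37I1, 7.67 in 50I1 and 5.65 in 52I4. The order of the 10 arrays was the same as for the alpha globins, with a Spearman rho of 1, and the 2 lowest, the biopsy of 31D3 and the total tumour of 52I4, lay within the background range given for Ahsp below. The means were 6.43 ± 0.73 (SD, n = 5) and 7.21 ± 1.08 (SD, n = 5), a difference of 0.78 (SE 0.352, higher in 4 of 5 pairs, unadjusted p = 0.0642 and adjusted p = 0.737 in limma).

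Ahsp, the alpha chain chaperone (1389160_at), was dim in all biopsies. Its log2 signal there was 4.52 in 31D3, 4.70 in 32D1, 5.12 in 37I1, 4.78 in 50I1 and 4.60 in 52I4. Total tumours read 5.01 in 31D3, 6.90 in 32D1, 5.86 in 37I1, 5.26 in 50I1 and 4.81 in 52I4. Single values of 10 genes of eye, sperm, hormone and nerve cells, taken as a reference for background, ranged from 3.08 to 5.92, so only the total tumour of 32D1 was above that whole range. The upper end is 1 value, that of Cryaa in the total tumour of 31D3, and all calls made against 5.92 rest on it. The other reference genes reached at most 5.39 (Gh1, total tumour of 50I1). Ahsp in the total tumour of 37I1 and the 2 lowest Alas2 values lay between 5.39 and 5.92. The means were 4.74 ± 0.23 (SD, n = 5) and 5.57 ± 0.84 (SD, n = 5), a difference of 0.83 (SE 0.283, unadjusted p = 0.0236 and adjusted p = 0.654 in limma). It was higher in 5 of 5 pairs, as were 3.7% of all probe sets, and the exact sign-flip permutation gave a two-sided p = 0.0625, the smallest it allows. The difference was 0.48 without tumour 32D1.

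Slc4a1, band 3, was read by 2 probe sets that differed. The brighter, 1369634_at, had a log2 signal in the biopsies of 5.10 in 31D3, 5.43 in 32D1, 5.45 in 37I1, 5.06 in 50I1 and 4.76 in 52I4. In the total tumours it was 5.19 in 31D3, 6.10 in 32D1, 5.36 in 37I1, 5.55 in 50I1 and 5.32 in 52I4, so it was above the background range in 1 array, the total tumour of 32D1. The biopsies of 32D1 and 37I1 and the total tumour of 50I1 lay between 5.39 and 5.92, above every reference gene but Cryaa. The means were 5.16 ± 0.29 (SD, n = 5) and 5.50 ± 0.36 (SD, n = 5), a difference of 0.34 (SE 0.136, higher in 4 of 5 pairs, unadjusted p = 0.0405 and adjusted p = 0.707 in limma). The exact sign-flip permutation gave a two-sided p = 0.1875. The dimmer probe set, 1387656_at, lay between 3.73 and 4.16 in the biopsies and between 3.62 and 4.62 in the total tumours other than 32D1, where it was 6.16. Its difference was 0.65 (SE 0.355, higher in 3 of 5 pairs). The signs of the brighter and the dimmer probe set were opposite in 31D3 (0.08 and -0.05), 37I1 (-0.09 and 0.34) and 52I4 (0.56 and -0.11). In 31D3 and 37I1 the pair differed by little in the brighter probe set.

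The haemoglobin probe sets gave nearly 1 pattern over the arrays. Of the haemoglobin probe sets, 7 had a mean log2 signal above 8: the 3 shared by Hba-a1 and Hba-a2, Hbb, the 2 shared by Hbbl1 and Hbb-bs, and Hba-a3. Their 21 pairwise Pearson correlations over the 10 arrays ranged from 0.980 to 0.999. Alas2 correlated with the brightest shared alpha globin probe set at r = 0.971, Ahsp at 0.725 (rho 0.891), the brighter Slc4a1 probe set at 0.610 and the dimmer at 0.699. The 10 arrays come from 5 tumours and share a normalisation, so these coefficients describe the arrays and carry no test. Per log2 unit of alpha globin, Hbb differed by 1.23, Alas2 by 1.36, Hba-a3 by 1.34, Ahsp by 0.76 and the brighter Slc4a1 probe set by 0.32. Alpha globin, on which these slopes were taken, is the signal nearest the top of the scale, and its own slope is 1 by definition. Ahsp and Slc4a1, near background, had flatter slopes than Hbb, Alas2 and Hba-a3. The part of the scale's limits in these slopes was not tested.

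**Figure D2:**
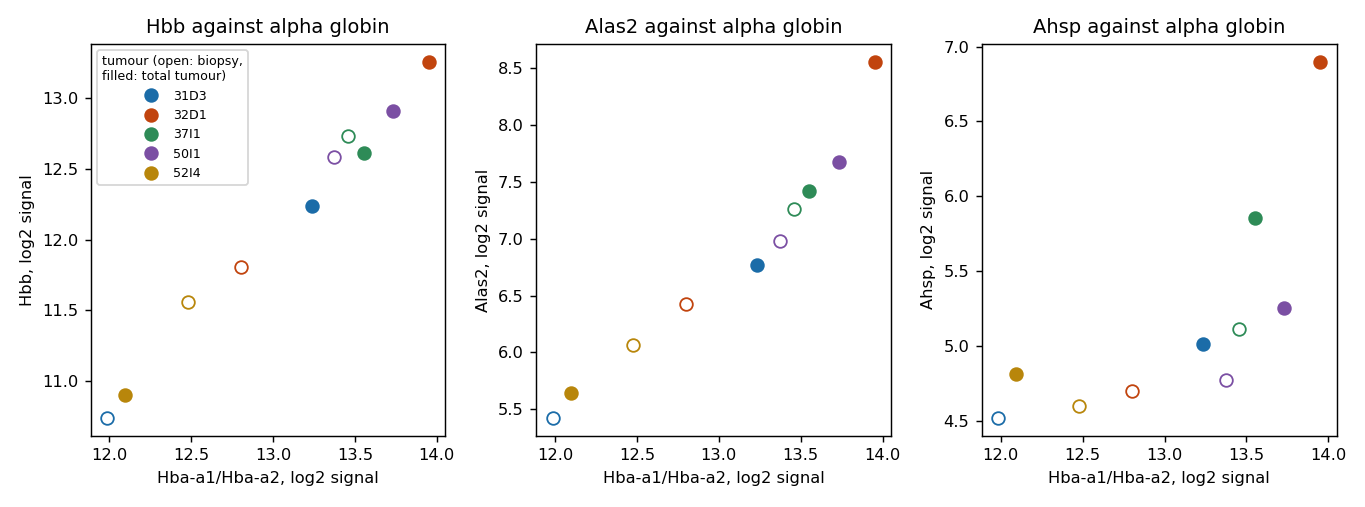
Log2 signal of Hbb, Alas2 and Ahsp on 10 arrays, plotted against that of the probe set shared by Hba-a1 and Hba-a2. Hbb and Alas2 lie along a line, with r = 0.994 and 0.971. Ahsp has r = 0.725 and rho 0.891. It lies between 4.52 and 5.86 on all arrays but the total tumour of 32D1, where it is 6.90.

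The mean log2 signal of the 5 distinct probe sets was used to order the arrays. In the biopsies it was 7.56 in 31D3, 8.23 in 32D1, 8.80 in 37I1, 8.55 in 50I1 and 7.89 in 52I4. The total tumours had 8.49 in 31D3, 9.75 in 32D1, 8.96 in 37I1, 9.02 in 50I1 and 7.76 in 52I4. The biopsy of 31D3 was lowest, the total tumour of 52I4 next, and the total tumours of 32D1, 50I1 and 37I1 were the 3 highest. The means were 8.21 ± 0.50 (SD, n = 5) and 8.80 ± 0.74 (SD, n = 5), and neighbours in the order lay closer together than either SD, except for the highest array, which stood further above the next than the SD of the biopsies. The paired differences were 0.93 in 31D3, 1.52 in 32D1, 0.16 in 37I1, 0.47 in 50I1 and -0.14 in 52I4, with a mean of 0.59 (SE 0.293).

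The size of the difference rested on few tumours. Without 32D1 the mean difference of the 5 probe sets was 0.36. For the alpha globins it was 0.31 without 31D3 and 0.33 without 32D1, and for Hbb 0.25 and 0.26, against 0.49 and 0.50 with all 5 tumours. Alas2 gave 0.44 without 32D1. Without 52I4, where the haemoglobins were lower in the total tumour, the difference was 0.71 for the alpha globins (unadjusted p = 0.0224 in limma), 0.79 for Hbb (0.0465) and 1.08 for Alas2 (0.0172). The unadjusted p of Ahsp passed 0.05 without each tumour but 37I1, where it was 0.0543. That of Slc4a1 was 0.126 without 32D1, 0.108 without 50I1 and 0.121 without 52I4. No adjusted p passed 0.05 in any of these fits.

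The tumours 31D3 and 32D1 had similar differences in some globins and less similar ones in several other erythroid genes. Alpha globin was higher in the total tumour by 1.25 in 31D3 and 1.15 in 32D1, and Hbb by 1.50 and 1.45. In the total tumour of 32D1 alpha globin, at 13.95, was close to the top of the scale. The part of that limit in the likeness was not tested. The probe sets shared by Hbbl1 and Hbb-bs differed by 1.65 and 2.10 and by 1.73 and 2.02, and Alas2 by 1.34 and 2.13. Ahsp differed by 0.49 in 31D3 and 2.20 in 32D1, the dimmer Slc4a1 probe set by -0.05 and 2.34, and a probe set shared by the theta chain genes Hbq1b and Hbq1 by 0.06 and 1.20. Chosen after their values were seen, Hemgn, an erythroid nuclear protein, differed by 0.35 and 1.50, and Alox15, the 15-lipoxygenase of reticulocytes and of some leukocytes, by 0.40 and 4.01. Klf1, a master regulator of the beta globin genes, differed by 0.60 and 1.01, while Gata1, the central erythroid transcription factor, went the other way with 1.13 and 0.00. Rhd, of the Rhesus complex, differed by 0.56 and 0.80, and Epb42, of the membrane skeleton, by 0.27 and 0.57. Hemgn, Klf1, Gata1, Rhd and Epb42 lay within the background range, 3.08 to 5.92, on all 10 arrays. In 31D3 so did Ahsp, Alox15, the dimmer Slc4a1 probe set and that of Hbq1b and Hbq1. Differences at such signals say little about transcripts. Each tumour was sampled once per group, so these contrasts between 2 tumours have no replicate and no test. In the total tumour of 32D1 all 8 member probe sets had their highest signal of the 10 arrays, and 12.1% of all probe sets did.

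**Figure D3:**
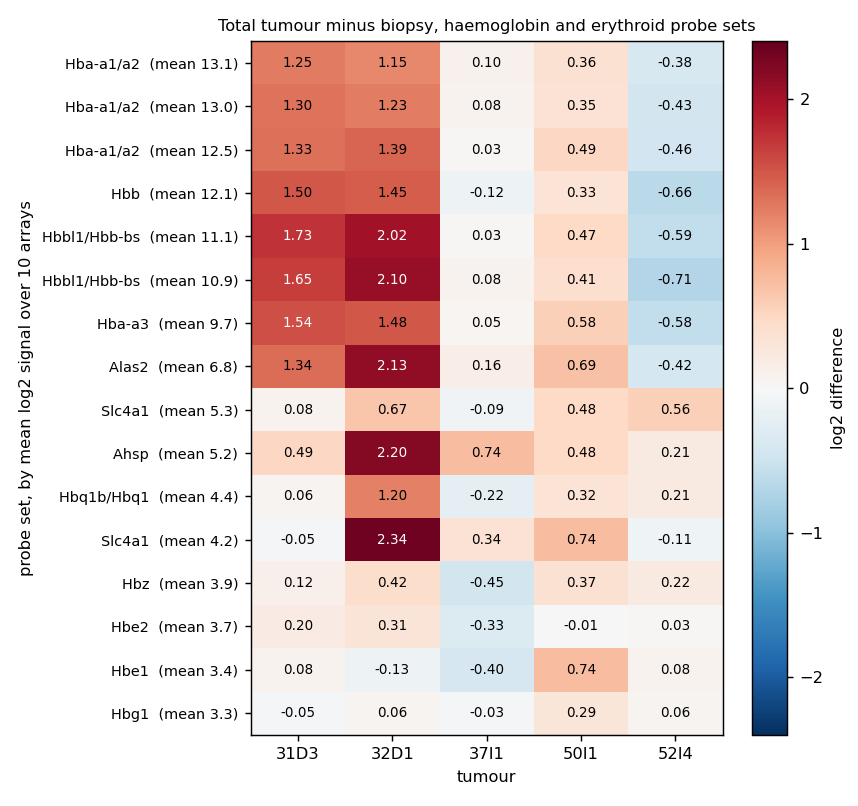
Log2 difference, total tumour minus biopsy, of haemoglobin and erythroid probe sets in each of 5 tumours. The probe sets of Hba-a1 and Hba-a2, Hbb and Hba-a3 are alike in 31D3 and 32D1, those of Hbbl1 and Hbb-bs are higher in 32D1, and Ahsp and the dimmer Slc4a1 probe set stand at 2.20 and 2.34 in 32D1 alone.

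The other globins split by stage. Hba-a3, a further alpha-type gene, averaged 9.41 ± 0.77 (SD, n = 5) over biopsies and 10.02 ± 1.06 (SD, n = 5) over total tumours, so the difference was 0.61 (SE 0.326, adjusted p = 0.758 in limma), with the same sign as the beta copies in every tumour but 37I1 for Hbb. The embryonic and fetal type chains read near background: the means in biopsies and total tumours were 3.33 and 3.40 for Hbe1, 3.73 and 3.77 for Hbe2, 3.30 and 3.36 for Hbg1, and 3.83 and 3.97 for Hbz. The gene means of the background reference spanned 3.29 to 5.14. The probe set of Hbq1b and Hbq1 was at most 4.58 on 9 arrays and 5.46 in the total tumour of 32D1.

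Lists of other red cell genes were then read, none of which held a gene past an adjusted p of 0.05. As a background for their counts, 57% of all 14217 genes read by their brightest probe set were higher in the total tumours by their means, and 6.86% of all probe sets had an unadjusted p under 0.05 in either direction. Of 15 genes of the red cell membrane and skeleton with a probe set, 11 were higher and 4 lower in the total tumours by their means, and 1 had an unadjusted p under 0.05, a share close to that of all probe sets. That gene was Rhd, of the Rhesus complex, at 3.82 and 4.26, a difference of 0.44 (SE 0.115, higher in 5 of 5 pairs, unadjusted p = 0.00698 in limma), at signals within the background range. The membrane-skeleton protein Epb42 differed by 0.10 and the widely expressed membrane protein Stom by 0.14 (SE 0.0912). The median of the list was 0.09.

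Of 14 genes of haem synthesis and transport, 9 were higher and 5 lower, with a median of 0.04 and none past an unadjusted p of 0.05. Alas2 was not among them. The enzymes Fech, which inserts the iron, and Cpox serve all cells and differed by 0.13 (SE 0.116) and 0.02 (SE 0.144). The smallest p values in this list were those of the transporter Abcb6, with -0.18 (SE 0.102), and the mitochondrial iron importer Slc25a37, with 0.17 (SE 0.124).

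Of 16 erythroid transcription factors and signalling genes, 9 were higher and 7 lower, and 1 passed an unadjusted p of 0.05, downward, both shares close to those of all genes and probe sets. This was Ldb1, a cofactor that holds globin enhancers and promoters together and is widely expressed, with -0.31 (SE 0.117, lower in 5 of 5 pairs, unadjusted p = 0.0355 in limma). Tal1, a haematopoietic and endothelial factor, differed by -0.27 (SE 0.119). Klf1 was at 4.51 in biopsies and 4.86 in total tumours and Gata1 at 3.74 and 4.14, both within the background range. The erythropoietin receptor Epor differed by 0.12 (SE 0.109) and the transferrin receptor Tfrc, used by all dividing cells, by -0.10 (SE 0.223).

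Of 14 red cell enzymes, 7 were higher and 7 lower and none passed an unadjusted p of 0.05. Car1, the carbonic anhydrase of red cells, differed by 0.23 (SE 0.111) and correlated with the erythroid mean at r = 0.948 over the 10 arrays, at signals of only 3.37 to 4.15. Car2, a carbonic anhydrase of many tissues, differed by 0.63 (SE 0.546). Alox15 was between 4.88 and 5.32 in the biopsies. Among the total tumours it was 5.28 in 31D3, 9.02 in 32D1, 7.11 in 37I1, 5.51 in 50I1 and 5.24 in 52I4, so its mean difference of 1.27 (SE 0.589, unadjusted p = 0.0706 in limma) came from 2 tumours.

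Blood brings other cells with it, and marker lists for these were read beside the erythroid mean, which was higher in 4 of 5 pairs. A list of genes for plasma proteins made by liver was read as well. It reads RNA and is no measure of the plasma in a sample. Against 57% of all genes, all 8 platelet and megakaryocyte genes were higher in the total tumours by their means, with a mean difference of 0.15 (SE 0.0537), but 1 of the 8 was above the limit of 5.15 below which the dimmest 40% of probe sets lie. Of 5 neutrophil genes all were higher, against the same 57%, with a mean of 0.76 (SE 0.285). S100a9 differed by 1.60 (SE 0.394, higher in 5 of 5 pairs) and S100a8 by 1.52 (SE 0.419, higher in 4 of 5 pairs), the 2 chains of calprotectin, which epithelium can also express, with unadjusted p values of 0.00528 and 0.00909 in limma. The other 3, Camp among them at 0.31 (SE 0.149), had means below that limit and read close to background. So did 6 of 9 genes for plasma proteins made by liver, Alb among them. The mean difference of the plasma protein list was 0.32 (SE 0.123). Its members above that limit were Fgg, with a difference of 1.04 (SE 0.537) and signals from 3.71 to 9.86, Serpina1 and Ttr. Of these, Ttr, at 5.04 to 5.71, stayed within the background range of 3.08 to 5.92. Its highest value passed 5.39, the top of the reference genes other than Cryaa.

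The endothelium and leukocyte lists, whose cells are in tissue as well as in blood, did not follow the erythroid mean across tumours. The endothelial mean differed by 0.72 in 31D3, -0.40 in 32D1, 0.59 in 37I1, -0.996 in 50I1 and 0.98 in 52I4, and its r with the erythroid mean over 10 arrays was -0.28. The leukocyte mean differed by 0.89, -0.28, 1.43, -1.35 and -0.70 in the same order, with r = -0.21. In 32D1 and 50I1 both lists were lower in the total tumour while the erythroid mean was higher. The neutrophil list had r = 0.78, the plasma protein list 0.80 (Fgg by itself 0.74), the platelet list 0.46 and the mammary epithelium list 0.59. The background reference reached 0.58, so a coefficient of that size was also found for genes of other organs that read near background. Over the 5 paired differences, r was 0.15 for the neutrophil list, 0.21 for plasma proteins, -0.07 for platelets, -0.44 for endothelium and 0.03 for leukocytes. The neutrophil list differed by -0.22 in 50I1 and 0.81 in 52I4, opposite in sign to the erythroid mean. So the neutrophil and plasma protein lists did not follow it closely through the pairs either. The mammary epithelium list differed by 0.12 (SE 0.0625), with Krt8 at 0.37 (unadjusted p = 0.0348 in limma), and the part of cell makeup in the erythroid differences was not tested.

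**Figure D4:**
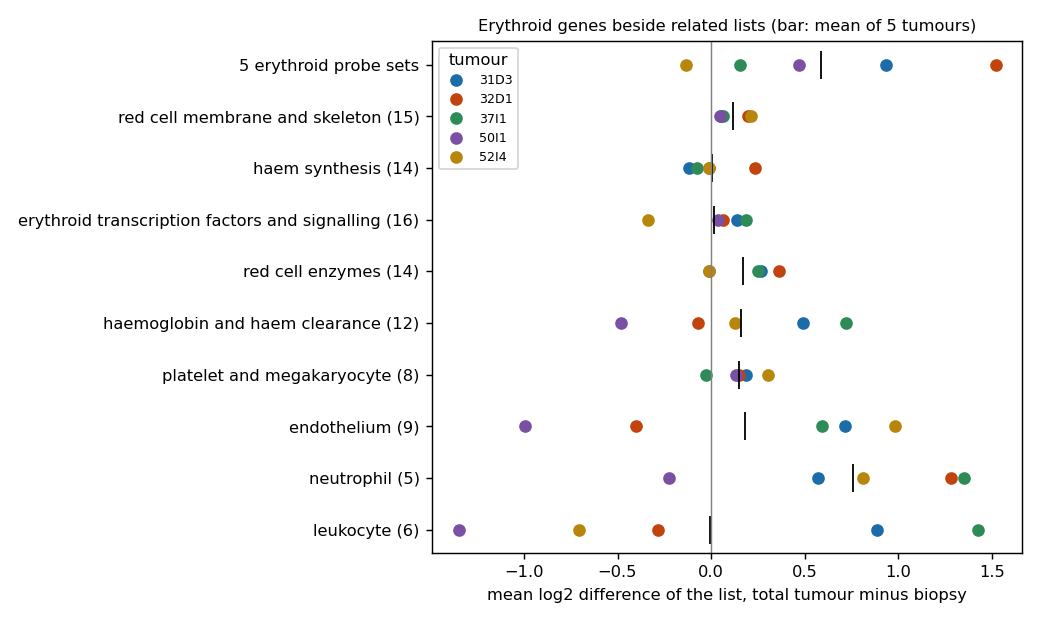
Log2 difference, total tumour minus biopsy, of the mean of each gene list in each of 5 tumours, with a bar at the mean. The erythroid genes and the neutrophil list have the highest means, 0.59 and 0.76, and the endothelium and leukocyte lists spread over more than 1.9 log2 units around means of 0.18 and 0.00.

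Genes with the pattern most like the erythroid mean over 10 arrays were sought among 10789 genes outside the list. Hba-a3 was first with r = 0.961. Next came Trmt6 with 0.851, Gid8 with 0.847, Tcfl5 with 0.829, Acadl with 0.820, Ly6l with 0.819, Fgl1 with 0.814, Mpc1 with 0.807, Brcc3 with 0.806 and Sowaha with 0.801. Apart from Hba-a3, the range over the 10 arrays was 2.97 for Tcfl5 and 3.70 for Fgl1 and under 1 for the other 7 of these 9. The lowest coefficients were those of Mef2d with -0.897, Gpr161 with -0.882, Cbfa2t2 with -0.865, Cep43 with -0.844 and Plpp7 with -0.835. In all, 11 genes had r above 0.8 and 15 had r below -0.8, so past Hba-a3 the coefficients were no larger on the positive side than on the negative.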

How the data were processed

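Total RNA of 5 biopsies and 5 total tumours was hybridised to 1 array each. The authors deposited log2 signals that they had normalised by RMA, per the submitters' processing notes and the series' design text; neither the RMA software and version nor the probe set definition is given in the sources used here. GeneSpring GX 7.3 served for the authors' paired t-test, per the labels. The deposited values (2.34 to 14.26, array medians 5.99 to 6.12, correlations between arrays 0.952 to 0.989) were used without further scaling or filter, after 57 control probe sets were left out. Of 31042 probe sets, 20826 had 1 gene in GEO's platform annotation, 436 several and 9780 none listed. Paired differences were fitted across all 31042 probe sets with limma 3.58.1 (R 4.3.3), each tumour being a block, and Benjamini-Hochberg adjustment, and standard errors are limma's for single probe sets and over pairs for means of probe sets or lists. Figures were drawn with matplotlib 3.10.9 (python 3.11.15).

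The labels pair the samples by tumour. The deviations of paired samples from their group means correlated above 0.1 in 4 of 5 pairs, and at -0.18 in 50I1. The members and gene lists were chosen with earlier results of these data known. Each list gene was read by its brightest probe set with 1 gene. Besides the members and all haemoglobin probe sets, the text names a fixed set of erythroid and haem genes, the 2 smallest p values in each red cell list, and the 10 highest and 5 lowest correlations, among genes with a mean above 5.15. The paired fit was also run on simulated data with planted differences and independent noise for each probe set. Since the erythroid probe sets moved together, that run checks the fitting code and not the results given here. Alternatives changed the block, filter, choice of probe sets, scaling and test, or left out 1 tumour.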

Additional observations from a re-analysis of the deposited data

Results flagged for a closer look

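The paired difference of Ahsp in tumour 32D1, 2.20 on the log2 scale, stood apart from those of the other 4 tumours, which lay between 0.21 and 0.74. It was the only value past Dixon's limit among 24 groups of 5 examined over the member probe sets, and chance alone gives about 1 such group in 20.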

How the results depend on the processing

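The mean difference of the 5 erythroid probe sets, 0.59, kept its direction in all 14 alternatives, between 0.36 and 0.77. Some of these could not move it: no block, no dimmest 40%, the paired t-test and limma with a trend. They leave the paired values of the 5 probe sets as they were. Both ends come from leaving out 1 tumour (32D1 and 52I4). No probe set of 31042 passed an adjusted p under 0.05 in limma or in any alternative. At an unadjusted p under 0.05, 2128 did so with the tumours paired, 1873 without the replicate block and 1959 by the methods' paired t-test. That count was 1133 without the dimmest 40% of probe sets and 760 with the probe sets of a gene averaged, where fewer features entered, and 2862 with array weights. Leaving out 1 tumour gave 1139 (52I4) to 3028 (37I1). Of these, the higher ones were 696 in the paired fit, against 258, 350 and 324 with the dimmest left out, with probe sets averaged and without 52I4, 1399 without 37I1 and 1114 with array weights. The cause was not tested for the weights or the tumours. Without the block the unadjusted p in limma was 0.0378 for Ahsp and 0.0992 for Slc4a1, and by the methods' paired t-test 0.0795 and 0.0802. No member changed direction, and the lowest adjusted p of a member in any alternative was 0.486. With both probe sets averaged, the difference of Slc4a1 was 0.50. The number of arrays, signals near background (Ahsp, Slc4a1, the lowest Alas2 values) and the top of the scale (alpha globins) limit these values.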

Other observations

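Genes that deal with released haemoglobin and haem were read as well. Of 12 with a probe set, 9 were higher and 3 lower in the total tumours by their means, 1 with an unadjusted p under 0.05, where 57% of all genes were higher and 6.86% of all probe sets had such a p, and none past an adjusted p of 0.05 in limma. Hmox1, the haem oxygenase that opens the haem ring, had a log2 signal in the biopsies of 8.46 in 31D3, 9.65 in 32D1, 9.41 in 37I1, 8.27 in 50I1 and 7.39 in 52I4, and in the total tumours of 10.17, 9.28, 9.95, 9.47 and 7.77. Its difference was 0.70 (SE 0.286, higher in 4 of 5 pairs, unadjusted p = 0.0466 and adjusted p = 0.714 in limma), and it was lower in 32D1, the tumour with the largest erythroid difference. Hp, the haptoglobin that binds free haemoglobin, differed by 0.42 (SE 0.217), and Cd163, the macrophage receptor for that complex, by -0.01 (SE 0.870). The 3 globins of tissue, Mb, Ngb and Cygb, differed by -0.16 (SE 0.0889), 0.16 (SE 0.132) and 0.41 (SE 0.476), and their mean had r = 0.01 with the erythroid mean over 10 arrays.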
